A study of Mus musculus with 8 samples.

Results

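The replication-dependent histone genes were examined as 1 gene module: the protein-coding genes named Hist1h to Hist4h in the deposited table, without Hist1h1t, Hist1h2ba and Hist1h2aa, which encode testis variants. This rule gave 64 of the 54532 genes, of which 5 encode linker histone H1, 17 H2A, 17 H2B, 12 H3 and 13 H4. The RNA came from whole testes of juvenile male mice, 4 of genotype Sync-Spdya fl/fl (control) and 4 Sync-Spdya cKO (cKO), with 1 library per mouse. All mice were synchronized with an inhibitor of retinoic acid synthesis, followed by retinoic acid (RA), and were collected 11.5 days after RA, a stage described as mid-late pachytene. All mice carried the floxed Spdya allele (Spdyafl/fl) and received tamoxifen, which the sample labels place 7.5 and 8.5 days after RA. Only the cKO mice (Spdyafl/fl;Ddx4-CreERT2) also carried the tamoxifen-inducible Cre, driven from Ddx4 in germ cells, so somatic cells of the testis keep Spdya in both groups. Levels are FPKM, in which the fragments counted on a gene are divided by its length in kilobases and by a scaled library size in units of 1000000 fragments.

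These genes supply the histones that package newly replicated DNA. Their transcripts are made mainly in S phase, usually lack introns, and end not in a poly(A) tail but in a short stem-loop that the stem-loop binding protein SLBP holds for processing, export and translation. NPAT activates their transcription, and the U7 small nuclear ribonucleoprotein with LSM11 helps to cut the 3′ end. Several of the genes can also use a polyadenylation signal further downstream, which gives a polyadenylated transcript. Pachytene spermatocytes have finished replication and make testis variants such as H1t and TH2B instead. Library kits that select mRNA by its poly(A) tail capture the stem-loop form poorly, and the labels name an mRNA library kit (SMARTER mRNA-seq).

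The annotated transcripts (GENCODE vM21, GRCm38) held the histone stem-loop, searched over their whole length as a 16-base pattern, in 45 of the 64 genes. Over all 21901 protein-coding genes of that annotation the pattern was present in 64, or 0.292%, with these 45 among them. In the 45 histone genes it never lay in the coding sequence, and the other genes with the pattern were not examined for this. The 45 stem-loops had 8 different sequences, and the stem divided them by histone type. All 33 stem-loops of H1, H2A, H2B and H3 genes had 1 stem, and all 12 of H4 genes had 1 of 2 other stems. The forms below are shown because they separate H4 from the other types, with the 6 bases of each stem strand in capitals and the 4 bases of the loop in lower case.

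Hist1h1c, chr13:23739512-23739527, plus strand, the form of 26 genes: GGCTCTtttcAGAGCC

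Hist2h2ac, chr3:96220418-96220433, minus strand, 1 gene: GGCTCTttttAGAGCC

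Hist1h4h, chr13:23531458-23531473, plus strand, the form of 7 H4 genes: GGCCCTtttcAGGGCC

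Hist1h4i, chr13:22040966-22040981, minus strand, 2 H4 genes: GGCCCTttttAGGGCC

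In the remaining 19 genes the pattern was not found, and in 9 of these the annotated transcript is the coding sequence alone, which stops before a 3′ end could be searched. Hist1h4k is among those 9. Of the 64 genes, 16 had a polyadenylation signal (AATAAA or ATTAAA) in the last 50 bases of an annotated transcript, against 77.9% of all protein-coding genes, and 13 of those 16 also had the stem-loop further upstream. The last 30 bases of 4 genes with high levels are shown because a polyadenylated form would use a signal there, with the signal in capitals.

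Hist1h1c, chr13:23740338-23740367, plus strand: ttctAATAAAaagcgtttagttttcattca

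Hist2h2be, chr3:96223709-96223738, plus strand: ttattattAATAAAgttaccgattagtttc

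Hist1h4i, chr13:22040636-22040665, minus strand: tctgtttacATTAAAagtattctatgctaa

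Hist3h2ba, chr11:58949504-58949533, plus strand: attAATAAAtttggttcaattttggccaca

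RefSeq promoters (GRCm38.p6, 250 bases before to 50 after the start) were matched for 58 of the 64 genes. The CCAAT box, searched as CCAAT on both strands, was present in all 46 matched promoters of H1, H2A, H2B and H3 genes and in 3 of 12 H4 promoters, against 37.4% of all 32851 promoters. A TATA box (TATAAA, both strands) was present in 56.9% of the matched promoters against 13.6% of all promoters. The octamer (ATTTGCAT, both strands) was found in 6 of 16 H2A and 5 of 15 H2B promoters and in none of the other types, against 1.74% of all promoters. The GC box (GGGCGG, both strands) was found in 37.9% of the matched promoters against 35.7% of all promoters. By type it was in 9 of 12 H4, 3 of 5 H1, 7 of 16 H2A, 2 of 10 H3 and 1 of 15 H2B promoters. The 250 bases before the RefSeq start of 2 genes are shown as an example with and an example without the CCAAT box, with CCAAT box, TATA box and octamer matches in capitals.

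Hist3h2a, an H2A gene, chr11:58954435-58954684, plus strand: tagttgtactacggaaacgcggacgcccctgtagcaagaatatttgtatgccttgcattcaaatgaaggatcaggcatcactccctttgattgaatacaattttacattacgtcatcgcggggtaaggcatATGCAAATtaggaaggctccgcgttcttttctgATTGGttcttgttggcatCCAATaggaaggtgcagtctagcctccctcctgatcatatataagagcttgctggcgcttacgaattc

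Hist1h4k, an H4 gene, chr13:21750554-21750803, minus strand: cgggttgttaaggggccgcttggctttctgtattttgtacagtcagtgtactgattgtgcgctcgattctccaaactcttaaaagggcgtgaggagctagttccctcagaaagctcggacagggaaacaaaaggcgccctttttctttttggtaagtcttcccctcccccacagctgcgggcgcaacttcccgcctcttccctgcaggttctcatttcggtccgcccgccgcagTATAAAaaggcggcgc

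The libraries held 13978342 to 19583091 fragments on genes, and 1 fragment on a gene of 1 kilobase was worth 0.0516 to 0.0763 FPKM. Spdya, the targeted gene, had 19.7 to 23.8 FPKM in the control libraries and 17.7 to 30.5 FPKM in the cKO libraries, and since the deletion takes out only part of the gene, its level over the whole gene gave no check of the labels. Control replicate 1 stood apart: 0.464% of its fragments were mitochondrial against 2.20% to 3.74% in the other 7 libraries, and the summed level of 16 RNAs without a poly(A) tail was 27.9 FPKM against 7.85 to 12.02 FPKM. Of these 16 RNAs 10 were at 0 in every library. Much of the difference in the sum was 1 RNA, Rn7sk, at 12.4 FPKM against 0.553 to 2.71 FPKM in the other 7 libraries. Terc had 9.20 against 3.66 to 7.85 FPKM. In a whole testis, fewer cells that make a transcript and less of it per cell cannot be told apart.

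The 64 histone genes were low throughout. Together they received 58.0 to 75.7 of every 1000000 fragments in the control libraries and 52.3 to 75.6 in the cKO libraries. In both groups replicate 4 was the lowest, and the other 6 libraries lay between 71.5 and 75.7. The median gene had a mean of 0.178 FPKM and 2 fragments per library. Of the 64 genes, 24 had fragments in all 8 libraries, 34 were at 0 in some libraries, and 6 were listed at 0 in all of them. A mean above 1 FPKM in both groups, which the test required, was reached by 11 genes, and the other 53 had means up to 0.867 FPKM and at most 25 fragments in a library. The 5 highest genes held 77.9% of all histone fragments and 58.9% of the summed FPKM.

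By comparison, the 11 histone genes on a list of their own, listed as replication-independent, summed to 667 to 1116 FPKM in a library. The 64 clustered genes summed to 40 to 63.7 FPKM. The 9 testis histone variants on their list summed to 2.38 to 5.04 FPKM, with 4 of them at 0 in every library. Hist1h1t, the gene for H1t, had 0.210 to 0.893 FPKM. In the study most pachytene spermatocytes of both genotypes stained for H1t protein, so these RNA levels are no measure of the protein. The part of library selection in these sums was not tested. These sums describe the gene groups and were not tested against each other.

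**Figure D1:**
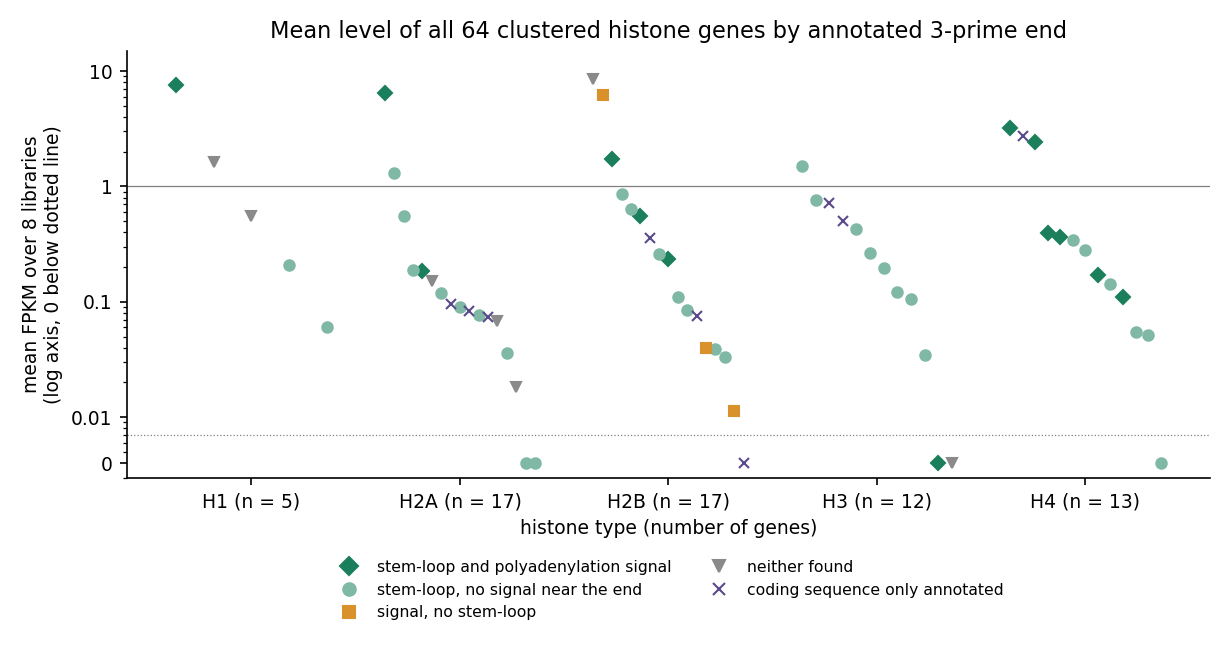
Mean FPKM over the 8 libraries (log axis) of each of the 64 genes, grouped by histone type and marked by what the annotated transcript holds at its 3′ end. Genes at 0 stand below the dotted line, the solid line marks 1 FPKM, and the median gene lies at 0.178 FPKM.

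Levels are given next by the annotated 3′ end. The 16 genes with a polyadenylation signal near the end had a median of 0.379 FPKM, and 6 of them were among the 11 tested. The 48 genes without such a signal had a median of 0.12 FPKM, and 5 of them were tested. The gene with the highest level, Hist1h2bc, had neither the stem-loop nor a signal near its annotated end. Its gene model spans chr13:23684199-23692908, although only 1156 bases of it are exonic. These are descriptions of levels over genes of different length, and the part of library selection in them was not tested.

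Sequence shared between copies also went with low values. Windows of 100 bases were compared with the transcripts of all other genes, and the median share found elsewhere was 15.1% for the 11 tested genes and 44.0% for the other 53. Across the 64 genes this share and the mean FPKM had a Spearman correlation of -0.365, a description over genes that share libraries and sequence. The 6 genes at 0 in all libraries were Hist2h2aa1, Hist2h2aa2, Hist2h3c1, Hist2h3b, Hist2h2bb and Hist1h4b, and they shared 44.0% to 100% of their windows with other genes. A value of 3 fragments would have been worth 0.0848 to 0.601 FPKM for them. How fragments that match several copies were counted is not given in the sources used here, so levels of near-identical copies are uncertain.

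No histone gene passed the test between the groups. The test was limma on log2(FPKM + 0.1) over the 12141 protein-coding genes above 1 FPKM in both groups, and a gene was called where the p adjusted by Benjamini-Hochberg was below 0.05 and the log2 fold change lay beyond 1 in either direction. Of the 11 histone genes tested, 0 were called and 0 reached the adjusted p alone, where 0.0165% of all genes tested met each of these rules. At an unadjusted p below 0.05, 0 of 11 were higher in the cKO libraries (5.89% of all genes) and 1 of 11 was lower (5% of all genes). Control and cKO libraries were apart in 1 of the 11 genes, which was lower in cKO, where this held for 2.59% of all genes tested, and in 0 genes in the higher direction, where it held for 3.64%. The median log2 fold change was 0.11 over the 11 histone genes and 0.01 over all genes tested. On this scale the change of low genes is understated.

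**Figure D2:**
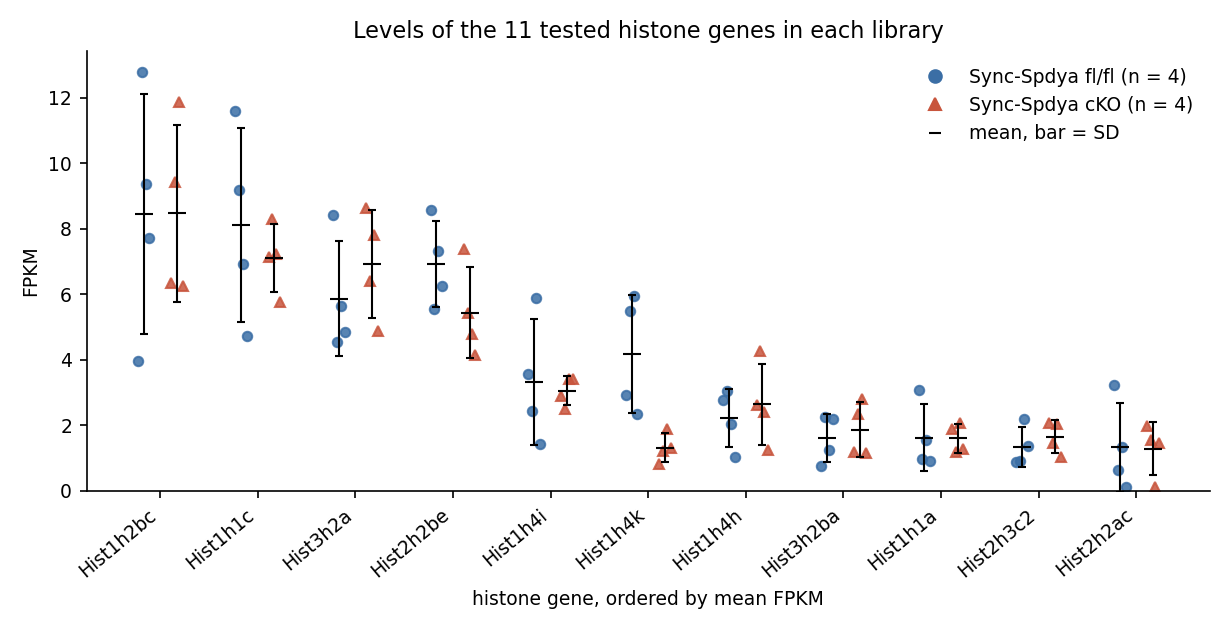
FPKM of the 11 tested histone genes in each of the 4 control libraries (circles) and 4 cKO libraries (triangles), with the mean and SD. The groups overlap in every gene except Hist1h4k, in which the cKO libraries lie at 0.827 to 1.90 FPKM and the control libraries at 2.35 to 5.95 FPKM.

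The gene without overlap among the 11 tested was Hist1h4k (ENSMUSG00000064288, chr13:21750194-21750505, minus strand), 1 of the 13 genes that encode the same H4 protein. It had 2.93, 5.48, 5.95 and 2.35 FPKM in the control libraries and 0.827, 1.20, 1.90 and 1.32 FPKM in the cKO libraries. Every cKO library was below every control library. These levels rest on 12, 31, 29 and 12 fragments against 5, 6, 10 and 7, on an annotated length of 312 bases. The log2 fold change came to -1.55 with a standard error of 0.33 and an adjusted p of 0.15 by limma, so the gene did not pass over the genes tested. An exact permutation test over the 70 assignments of libraries, two-sided, gave p = 0.0286 for this gene alone. That is the smallest p that 4 libraries against 4 allow, and groups without overlap always give it. The test therefore only restates the lack of overlap by which the gene was singled out.

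Summed over libraries, Hist1h4k had 84 fragments in control and 28 in cKO, a ratio of 0.305 after library scaling. Its 95% interval was 0.191 to 0.472 (Clopper-Pearson), which covers counting error only and not the spread between mice. With limma array weights, which weight each library by its residual spread, the adjusted p was 0.0228 and the gene was called. The share of all genes called with those weights is not given here, so the call cannot be read as particular to Hist1h4k. Over the 8 fits that each left out 1 library the adjusted p was 0.0765 to 0.522. Of its 100-base windows 64.3% occur in other genes, and its coding sequence is 86.5% to 98.4% identical to those of the other 12 H4 genes. Whether fragments on it came from another copy was not tested.

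The other H4 genes had values in both groups that overlapped. Hist1h4i (chr13:22040636-22041362) had 3.57, 2.43, 5.90 and 1.43 FPKM in control and 2.91, 2.50, 3.43 and 3.40 FPKM in cKO, a log2 fold change of 0.05 (standard error 0.35). Hist1h4h (chr13:23531050-23531519) had 2.76, 3.05, 2.04 and 1.04 against 2.63, 4.26, 2.40 and 1.25 FPKM, a log2 fold change of 0.22 (standard error 0.39). In Hist1h4i the cKO libraries lay inside the control range, and in Hist1h4h the ranges overlapped. Hist4h4, the single gene of the Hist4 cluster on chromosome 6, had 0.0447 to 0.212 FPKM in control and 0.0617 to 0.126 FPKM in cKO. All 13 H4 genes together summed to 12.2 ± 4.58 FPKM in control and 8.35 ± 1.13 FPKM in cKO (SD, n = 4 each), and without Hist1h4k to 8.03 ± 2.93 and 7.03 ± 0.967 FPKM. The mean was lower in cKO in 10 of the 13 H4 genes and higher in 2, with 1 at 0, and most of these rest on a few fragments.

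Among the H2B genes, which encode a core histone paired with H2A, Hist1h2bc had the highest level of all 64. Its values were 3.96, 12.8, 9.35 and 7.71 FPKM in control and 6.34, 9.43, 11.9 and 6.27 FPKM in cKO. Control replicate 1, the library that stood apart, was the lowest, and replicate 2 of the same group was the highest. The log2 fold change was 0.07 (standard error 0.33). Hist2h2be (chr3:96221119-96223738) had 8.56, 5.54, 7.33 and 6.27 FPKM in control and 7.38, 5.43, 4.80 and 4.16 FPKM in cKO. Its log2 fold change came to -0.36 with a standard error of 0.19 (adjusted p = 0.551 by limma), the second lowest of the 11, and the groups overlapped. None of its 100-base windows occur in another gene.

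Hist3h2ba (chr11:58948920-58949533) had 0.746 to 2.25 FPKM in control and 1.15 to 2.80 FPKM in cKO, a log2 fold change of 0.22 (standard error 0.39). Hist1h2bj, the highest histone gene under the test's filter, had 0.165, 1.07, 1.80 and 0.264 FPKM against 0.891, 1.22, 0.897 and 0.636 FPKM. The 17 H2B genes summed to 19.8 ± 4.76 FPKM in control and 19.6 ± 5.03 FPKM in cKO (SD, n = 4 each). Hist1h2bc made up 43.0% of that sum.

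H2A was led by Hist3h2a (chr11:58954685-58956830), with 8.43, 4.55, 5.63 and 4.86 FPKM in control and 8.63, 6.39, 7.79 and 4.89 FPKM in cKO. The log2 fold change came to 0.25 with a standard error of 0.22 (adjusted p = 0.752 by limma). Its first base is also the first base of Trim17, on the same strand, which had 0.674 to 1.91 FPKM over the 8 libraries, and 29.8% of the windows of Hist3h2a occur in that gene. Hist2h2ac (chr3:96220361-96220880) was the most variable of the 11, with 3.23, 0.636, 1.35 and 0.117 FPKM against 1.98, 1.57, 0.114 and 1.47 FPKM, a log2 fold change of 0.15 (standard error 0.89). A microRNA gene overlaps it on the other strand and was listed at 0 in all libraries. The 17 H2A genes summed to 8.83 ± 2.73 and 10.1 ± 1.96 FPKM (SD, n = 4 each).

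Of the linker histones, which bind DNA between nucleosomes, Hist1h1c (chr13:23738808-23740367) had 11.6, 9.19, 6.93 and 4.73 FPKM in control and 7.14, 8.31, 7.22 and 5.78 FPKM in cKO. The cKO values lay inside the control range, and the log2 fold change was -0.12 (standard error 0.24). Hist1h1a (chr13:23763666-23764406) had 3.09, 0.968, 1.55 and 0.906 against 1.88, 1.18, 2.08 and 1.27 FPKM, a log2 fold change of 0.11 (standard error 0.36). In both genes control replicate 1 was the highest of the 8 libraries. The 5 H1 genes summed to 10.8 ± 3.84 and 9.31 ± 1.27 FPKM (SD, n = 4 each). Hist1h1c made up 75.8% of that sum.

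H3, whose tail carries many of the known chromatin marks, had the lowest sums, 4.28 ± 1.45 FPKM in control and 5.01 ± 0.771 FPKM in cKO (SD, n = 4 each). Its only gene tested was Hist2h3c2 (chr3:96238108-96239127), with 0.898, 0.919, 2.20 and 1.38 FPKM against 2.07, 1.47, 2.03 and 1.04 FPKM. The log2 fold change came to 0.32 with a standard error of 0.31 (adjusted p = 0.77 by limma), the highest of the 11, and the groups overlapped. Of its windows 61.6% occur in 3 other genes.

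**Figure D3:**
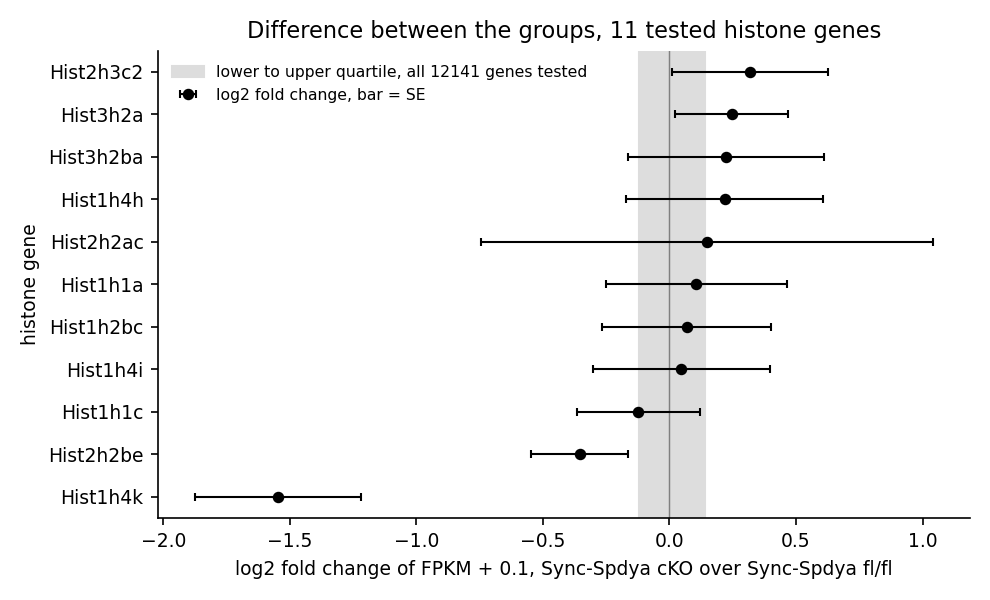
Log2 fold change of FPKM + 0.1 between cKO and control libraries for the 11 tested histone genes, with the standard error. The grey band spans the lower to the upper quartile of all 12141 genes tested, and 10 of the 11 histone genes lie within 0.5 of 0 while Hist1h4k lies at -1.55.

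**Figure D4:**
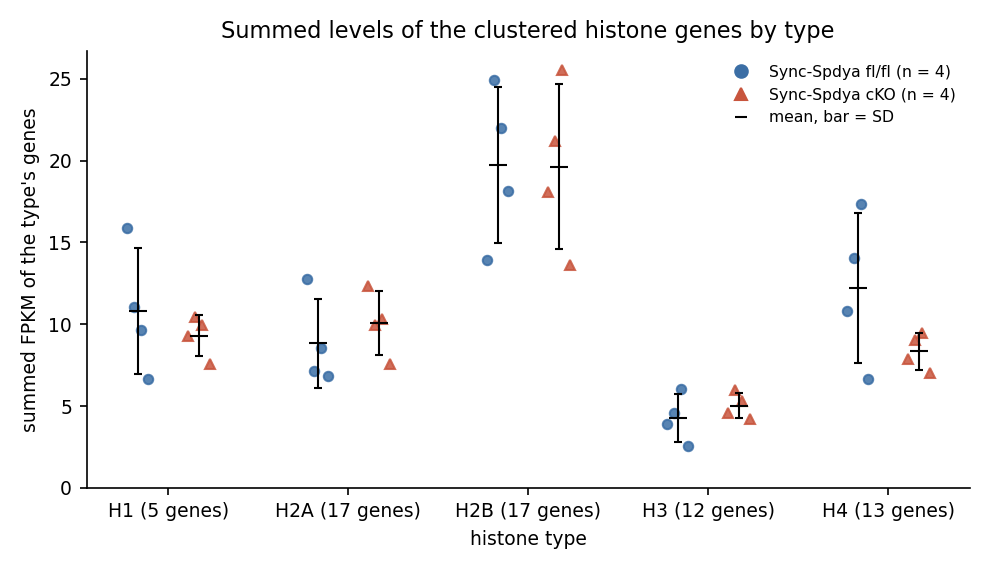
Summed FPKM of the genes of each histone type in each library, with the mean and SD of the 4 libraries of a group. The ranges of the groups overlap in all 5 types, and the H2B sum has the highest mean in both groups, although in control replicate 1 the H1 sum (15.9 FPKM) lies above that of H2B (13.95 FPKM).

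By position, the 51 Hist1 genes lie in 2 blocks on chromosome 13. The block at 21715763 to 22043676 holds 23 genes, Hist1h4k among them, and summed to 13.2 ± 5.25 FPKM in control and 10.3 ± 2.50 FPKM in cKO (SD, n = 4 each). The mean was lower in cKO in 11 of its genes and higher in 12. The block at 23531050 to 23764406 holds 28 genes and summed to 24.9 ± 5.79 and 24.4 ± 5.34 FPKM. The 10 Hist2 genes on chromosome 3 summed to 10.1 ± 2.80 and 8.76 ± 2.18 FPKM, and the 2 Hist3 genes on chromosome 11 to 7.48 ± 1.14 and 8.79 ± 1.99 FPKM. In each block the groups overlapped.

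With the filter lowered to a mean of 0.1 FPKM over all 8 libraries, 40 histone genes could be fitted among 15937 genes. None reached an adjusted p below 0.05, the lowest being 0.147 for Hist1h4k. At an unadjusted p below 0.05, 2 of 40 were higher in cKO (6.23% of all genes) and 4 of 40 were lower (4.86%). These were Hist1h2bp and Hist1h2ag in the higher direction, and Hist1h4k, Hist1h1b, Hist1h4m and Hist1h3d in the lower. All but Hist1h4k are named here after their values were seen. The other 5 had at most 14 fragments in any library, and Hist1h2ag had 0, 1, 0 and 0 fragments in control and 2, 2, 2 and 1 in cKO. Control and cKO libraries did not overlap in 3 of the 40, higher in cKO in 1 (Hist1h2ag, 3.78% of all genes) and lower in 2 (Hist1h4k and Hist1h3d, 2.55%). The control mean of Hist1h2ag lay below 0.1 FPKM (0.028 against 0.209 in cKO). So did the cKO means of Hist1h3d (0.034 against 0.179 in control) and Hist1h4m (0.037 against 0.520 in control). These genes passed the filter through 1 group only, so their differences between the groups are no evidence of a change. The 40 log2 fold changes had a median of -0.04, with 20 above 0 and 20 below.

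The genes that make and process histone mRNA showed no called difference either. Of 17 genes on that list 15 were in the table and 14 were tested, with 0 at an unadjusted p below 0.05 in either direction and a median log2 fold change of -0.06. Slbp, whose protein binds the stem-loop, had 58.0, 31.9, 30.9 and 28.9 FPKM in control and 35.3, 26.7, 27.8 and 26.9 FPKM in cKO, with control replicate 1 far above the others (log2 fold change -0.31, standard error 0.21). Npat had 9.43 to 13.8 and 11.7 to 12.8 FPKM (log2 fold change 0.01). Lsm11 had 3.00 to 4.77 and 2.61 to 3.21 FPKM (log2 fold change -0.30, standard error 0.16, limma adjusted p = 0.551). Of 26 histone chaperones tested, 0 were higher and 2 lower at an unadjusted p (5.89% and 5% of all genes tested), with a median of -0.10.

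The S phase list holds genes of DNA replication and S phase, and which cells of the testis made their transcripts was not tested. It had 46 genes tested, 0 higher and 4 lower at an unadjusted p below 0.05 (5.89% and 5% of all genes tested). The median log2 fold change was -0.08. None reached the adjusted p. Ccne2, a cyclin of the entry into S phase, and Prim1, a primase subunit, had the smallest p, with log2 fold changes of -0.57 (standard error 0.13) and -0.35 (standard error 0.11). Their limma adjusted p were 0.172 and 0.28. The list summed to 1190 FPKM in control replicate 1 and to 807.5 to 943 FPKM in the other 7 libraries. Of the 11 tested histone genes, 4 were highest of the 8 libraries in control replicate 1 (Hist1h1c, Hist1h1a, Hist2h2ac and Hist2h2be), 3 were lowest there (Hist1h2bc, Hist3h2ba and Hist2h3c2), and 4 lay between. Of 15 mitosis genes 1 was higher and 0 lower at an unadjusted p (median -0.02), of the 11 replication-independent histones 0 in either direction (median 0.03), and of the testis variants only Hist1h2ba, the gene for TH2B, was tested (log2 fold change 0.25, standard error 0.43). Of 13 mitochondrial mRNAs 1 was higher and 0 lower (median 0.66), with control replicate 1 far below the others. The part of the S phase share and of RNA selection in the levels of the histone genes was not tested.

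Markers of the cells in a testis are given beside these comparisons, and of those tested 0 reached an adjusted p below 0.05. The 9 spermatocyte markers summed to 1532 to 2328 FPKM in control and 1315 to 1991 FPKM in cKO, and the 7 spermatid markers to 4.81 to 12.3 and 5.98 to 7.99 FPKM. The 8 markers of undifferentiated spermatogonia summed to 70.3 to 107 and 73.5 to 87.7 FPKM. The 7 of differentiating spermatogonia summed to 137 to 168 and 158 to 172 FPKM, and both cell types still divide. Dmrt1 was the highest of these 7 (mean 76.1 FPKM, log2 fold change 0.15). Stra8 went the other way, with 5.92, 4.53, 19.8 and 12.9 FPKM in control and 2.03, 3.93, 2.93 and 4.70 FPKM in cKO. The groups overlapped in Stra8 (log2 fold change -1.46). Of the 7 markers 2 were higher and 1, Stra8, was lower at an unadjusted p below 0.05. Somatic markers summed higher in cKO on average: 7 Sertoli cell markers to 979.5 to 1327 and 1310 to 1553 FPKM, 6 Leydig cell markers to 16.5 to 37.9 and 28.6 to 46.7 FPKM, and 4 peritubular cell markers to 43.7 to 73.9 and 72.6 to 102 FPKM. Most of the Sertoli sum was Clu (mean 939.5 FPKM, log2 fold change 0.36), and the median log2 fold change of the 7 Sertoli markers was 0.16. Most of the peritubular sum was Acta2 (mean 61.1 FPKM, log2 fold change 0.57). Only 2 of the 4 peritubular markers were tested, and the other, Myh11, had a log2 fold change of 0.15. Macrophage markers summed to 12.3 to 19.95 and 21.0 to 25.0 FPKM, the list in which the groups did not overlap. Single genes were apart in this direction in 3.64% of all genes tested, and no such share was computed for sums. Of the 5 macrophage markers 3 were higher and 0 lower at an unadjusted p below 0.05 (5.89% and 5% of all genes tested). The 4 endothelial markers summed to 4.88 to 10.9 and 10.2 to 13.1 FPKM, and the 4 erythroid markers to 9.96 to 36.8 and 20.4 to 44.0 FPKM. No marker on these lists was at 0 in all libraries, and the part of these cells in the histone levels was not tested.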

How the data were processed

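The authors deposited FPKM values for 54532 genes in 8 libraries, made from paired-end reads with the software of a sequencing company. Builds GRCm38 and mm10 stand in the submitters' processing notes. Aligner, counting tool, strand use and the treatment of multiply mapped reads are not given in the sources used here. FPKM times gene length gave whole fragments in 100% of values above 0 (tolerance 0.02), used for depth, intervals and voom. The test was limma 3.58.1 in R 4.3.3 (lmFit, eBayes with trend, pseudocount 0.1, two-sided), 4 against 4 libraries without covariates, on protein-coding genes with a mean above 1 FPKM in both groups, the filter and thresholds of the study's methods. The study's count model was not fitted here. P-values measure the spread between these mice. All 64 genes had the start and end of GENCODE vM21.

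The members and lists were chosen with earlier results of these data known. Named histone genes were the 12 with the highest mean FPKM, the highest of each type and cluster, the 5 tested with the smallest p, and any called. Other named genes were Slbp, Npat, Lsm11 and at most 2 of a pathway list with the smallest p. The markers Dmrt1, Stra8, Clu, Acta2 and Myh11, and the RNAs Rn7sk and Terc, were named after their values were seen. The least different pair of replicates differed by 3.66 times the sampling noise. The alternatives were other filters, pseudocounts, scalings, moderation and weights, a replicate block, and leaving out each library.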

Additional observations from a re-analysis of the deposited data

Results flagged for a closer look

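Groups of 4 libraries were searched for a library far from the other 3 by Dixon's criterion, in the named histone genes, the sums by type, 2 library measures and 8 gene lists. Chance flags about 1 in 20 groups, and 5 of the 58 groups examined were flagged. None was a single histone gene. In control replicate 4 the 64 histone genes took 58.0 of every 1000000 fragments, below the other 3 control libraries. In control replicate 1 the mitochondrial share was 0.464% of fragments, the 13 mitochondrial mRNAs summed to 3660 FPKM (low), and the 26 histone chaperones summed to 1180 FPKM (high). In cKO replicate 4 the 9 testis histone variants summed to 3.21 FPKM, below the other 3 libraries of that group. Whether these libraries differ in cell makeup or in RNA selection was not tested.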

How the results depend on the processing

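The count of histone genes called was 0 in 11 of the 12 other settings and in all 8 fits without 1 library. It was 1 with array weights, in which Hist1h4k passed with and without the fold change threshold (1 gene each, log2 fold change -1.61). The share of all genes called with array weights is not given here, so this call cannot be set against it. Array weights also gave 1 gene higher at an unadjusted p, Hist3h2a, and 1 pathway gene at the adjusted p, Ccne2, and turned Hist1h2bc to -0.067 and Hist2h2ac to -0.39. The weights ran from 0.161 (control replicate 1) to 4.45 (cKO replicate 3). At an unadjusted p, 2 genes were higher and 4 lower both with the 0.1 FPKM filter and with no filter, in which more genes were tested, and 0 were lower with the filter at 5 FPKM, in which 4 histone genes were tested. With the replicate block the count lower was 2, Hist2h2be being added, and no other count changed. Between libraries that share a number, deviations from the group mean had correlations of 0.0757 to 0.406. In all, 3 of 4 control and 2 of 4 cKO libraries correlated best with their own number, and the numbers were not taken as pairs. Without 1 library the count higher ranged from 0 to 1 (1 without control replicate 1) and the count lower from 1 to 2 (2 without cKO replicate 1). The log2 fold change of Hist1h4k ranged from -1.78 to -1.35, and 7 genes changed sign: Hist1h1a from -0.10 to 0.46, Hist1h1c from -0.35 to 0.071, Hist1h2bc from -0.25 to 0.30, Hist1h4h from -0.090 to 0.52, Hist1h4i from -0.28 to 0.37, Hist2h2ac from -0.56 to 0.91 and Hist3h2ba from -0.077 to 0.41. The number of histone genes without overlap between the groups was 1 of the 11 tested and 3 with the 0.1 FPKM filter, 1 higher and 2 lower. Of these, Hist1h2ag and Hist1h3d passed that filter through 1 group only. The cause of these shifts was not tested. Over all 64 genes the median was 2 fragments per library, and 53 genes were too low to be tested.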
